A study of Mus musculus with 12 samples.

Results

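The NF-kB subunit and inhibitor genes were 10 genes picked by name as subunits of the transcription factor or members of the IkB family, among 54232 genes in the deposited count table. They were Nfkb1, Nfkb2, Rel, Rela and Relb, which encode the 5 subunits, and Nfkbia, Nfkbib, Nfkbie, Nfkbiz and Bcl3 of the IkB family. All 10 passed the filter on low counts. RNA was taken from Ddx55-knockout (KO) and wild-type (WT) naive CD4+ T cells of mouse spleen and pLN, with 2 libraries for each genotype at each time. The stimulus was anti-CD3 at 5 ug/ml and anti-CD28 at 2.5 ug/ml, both bound to the plate, which act on the T cell receptor and on its costimulator CD28, and it lasted 0 h, 8 h or 24 h. The labels give no Cre driver, strain, age or sex of the animals, and do not state whether replicate libraries were made from different animals. The p-values therefore measure only the spread between these samples, which may be technical.

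NF-kB factors are dimers of subunits that share a Rel homology domain for DNA binding. Rela, Rel and Relb carry activation domains, whereas Nfkb1 and Nfkb2 encode precursors that hold dimers in the cytoplasm until they are processed into DNA-binding subunits without such a domain. In T cells the antigen receptor acts through the IkB kinase (IKK), which marks the IkB proteins for degradation and frees the dimers. The noncanonical arm runs from receptors of the TNF family through the kinase encoded by Map3k14 to the processing of the Nfkb2 product. Many of the pathway's own genes are known NF-kB targets, which gives it both feedback inhibition and feed-forward supply.

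Gene counts per library lay between 16810375 and 19126498. Ddx55, which encodes an RNA helicase, stood at 14.5 to 19.5 CPM (counts relative to the total of the library, scaled with TMM factors) in the 6 KO libraries and at 45.3 to 68.8 CPM in the 6 WT libraries, so residual transcript was counted in the knockout. All 12 listed T cell markers, Cd3e and Cd4 among them, were above the filter, and their sum lay between 3947 and 8521 CPM in KO libraries and between 3312 and 9304 CPM in WT libraries. The KO libraries also held RNA of genes that mark other cells. The sum of 9 basophil and mast cell genes lay between 126.9 and 807 CPM in KO and between 9.47 and 44.8 CPM in WT libraries. The sum of 10 neutrophil and granulocyte progenitor genes lay between 16.8 and 508 CPM in KO and between 0.433 and 56.0 CPM in WT libraries, and that of 10 CD8 T and NK cell genes between 60.6 and 305 CPM in KO and between 30.7 and 114 CPM in WT libraries. For 12 immediate early genes such as Fos and Junb, a list chosen with these values known, the KO libraries at 0 h summed to 6474 and 4984 CPM. The 2 WT libraries at 0 h stood further apart, with 7966 CPM in replicate 1 and 3526 CPM in replicate 2. At 8 h the sum was 4620 and 4664 CPM in KO and 3492 and 3383 CPM in WT libraries.

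At 0 h the order of the genes could be compared per kilobase of annotated exon, since longer genes collect more reads. Nfkbia, which encodes IkB alpha, the rapidly resynthesized inhibitor, had the highest level, with 221 and 168 CPM per kb in KO libraries and 199 and 116 CPM per kb in WT libraries. Rela, the subunit of the canonical dimer with a strong activation domain, had 52.6 and 42.9 CPM per kb in KO and 52.3 CPM per kb in both WT libraries. Rela thus stood above the 4 other subunits in every library at 0 h, and made up 43.4% and 39.1% of the summed subunit level in KO and 42.7% and 44.4% in WT libraries. Rel, the lymphoid subunit c-Rel, was the lowest of the 10 genes, with 7.89 and 10.02 CPM per kb in KO and 10.8 and 9.61 CPM per kb in WT libraries. The levels of Nfkb1, Nfkb2, Nfkbib, Nfkbie and Relb in WT cells at 0 h lay between 11.8 and 25.1 CPM per kb, and those of Nfkb2, Nfkbib and Bcl3 overlapped. In bulk RNA a smaller number of expressing cells and less RNA per cell cannot be told apart.

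**Figure D1:**
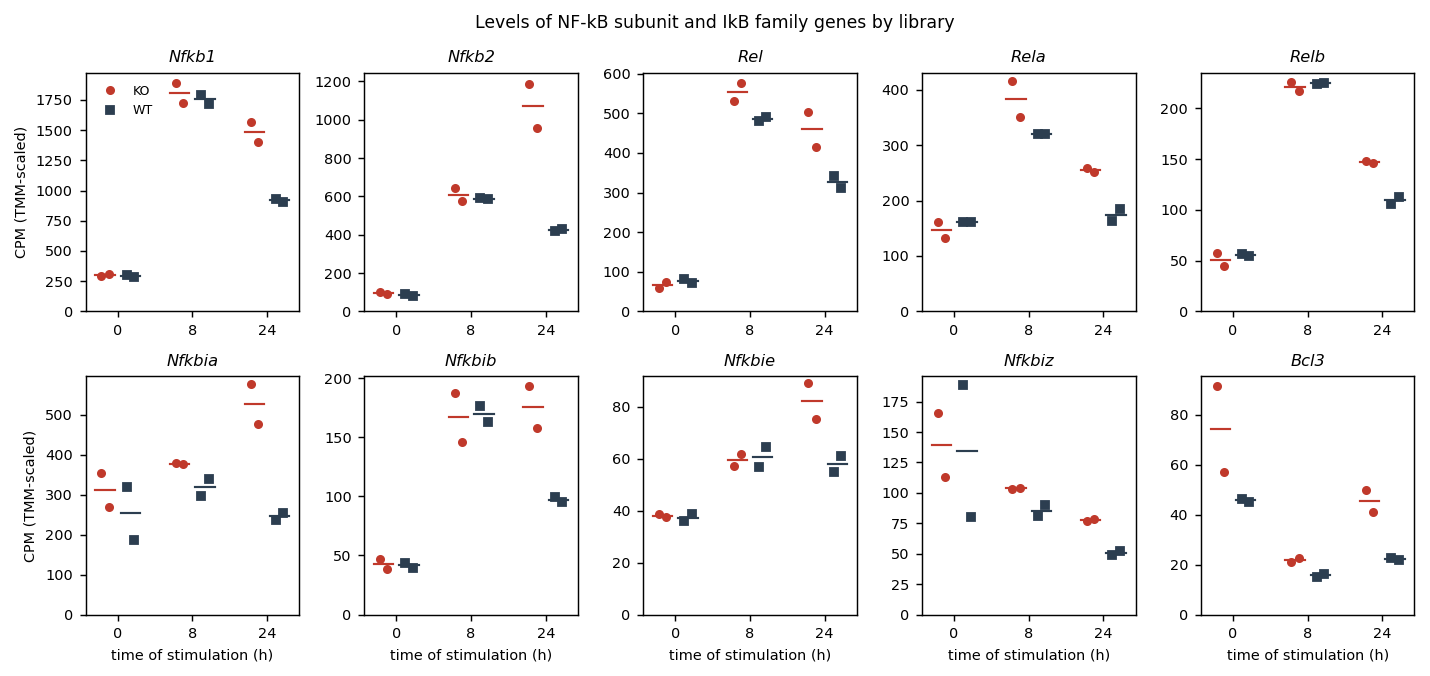
Levels of the 10 genes in each library in CPM scaled with TMM factors, against hours of stimulation, with a point per library (KO circles, WT squares) and a bar at the mean of 2. At 24 h both KO points lie above both WT points in all 10 panels, and at 0 h the WT points of Nfkbia and Nfkbiz lie far apart.

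Promoter sequence was available from RefSeq (GRCm38.p6) for 7 of the 10 genes, as 9 windows of 250 bases before an annotated start. The kB consensus, the 10-base sequence that NF-kB dimers are known to bind, was searched on both strands. It matched in 6 of 9 windows, belonging to Nfkb2, Rel, Nfkbia and Nfkbie, while 7.25% of all 32851 promoter windows of this length held a match. Since 3 of these windows were of Nfkb2, matches were also counted by gene. By gene, 4 of 7 held a match, while 8.23% of all 27025 genes did. Windows of Rela, Nfkbib and Bcl3 held none of these letters, and Nfkb1, Relb and Nfkbiz had no entry. A match describes letters in a window and is not evidence of a bound site. The promoters below are those of the subunit gene and the inhibitor gene whose RNA differed most between KO and WT cells within their group at 24 h, with matches in capitals. The Nfkb2 window is its most upstream one, at chr19:46304487-46304736 on the plus strand. Its first stretch of capitals holds a pair of overlapping matches that begin 39 and 38 bases before the start, and another match begins 11 bases before it.
Nfkb2 promoter: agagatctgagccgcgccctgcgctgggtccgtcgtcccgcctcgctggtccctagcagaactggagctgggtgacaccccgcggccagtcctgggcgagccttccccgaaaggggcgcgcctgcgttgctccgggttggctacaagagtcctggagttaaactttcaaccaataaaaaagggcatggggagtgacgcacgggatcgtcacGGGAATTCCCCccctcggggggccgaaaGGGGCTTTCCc
Nfkbia promoter: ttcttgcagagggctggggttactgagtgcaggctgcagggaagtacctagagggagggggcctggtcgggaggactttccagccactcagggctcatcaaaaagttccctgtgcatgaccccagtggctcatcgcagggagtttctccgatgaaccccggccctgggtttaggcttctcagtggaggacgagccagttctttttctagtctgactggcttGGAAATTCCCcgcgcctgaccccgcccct
The Nfkbia window lies at chr12:55492648-55492897 on the minus strand, and its match begins 29 bases before the start. For comparison, these are matches without flanks of Nfkbie (chr17:45555450-45555699, plus strand, 106 bases before the start) and of Rel, where it is the first of an overlapping pair (chr11:23770970-23771219, minus strand, 92 bases before the start).
Nfkbie match: GGGGGATTCC
Rel match: GGGAAATCCC

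Within 8 h of stimulation, most of these genes rose in cells of either genotype. In WT cells 7 of 10 were higher and 1 was lower at 8 h than at 0 h at an adjusted p under 0.05 (edgeR's quasi-likelihood test, Benjamini-Hochberg adjusted over 15679 genes), while 28.3% of all genes tested were higher and 33.6% lower. The median log2 fold change was 1.51 for the 10 genes and -0.15 for all genes tested. Nfkb1 (chr3:135584655-135691547, minus strand) had 1794 and 1716 CPM at 8 h and 302 and 287 CPM at 0 h in WT libraries, a log2 fold change of 2.58 ± 0.11 (SE, adjusted p = 5.01e-11). Nfkb2 (chr19:46304320-46312385, plus strand) had 591 and 585 CPM at 8 h and 90.1 and 82.4 CPM at 0 h, a log2 fold change of 2.77 ± 0.12 (adjusted p = 9.58e-11). For Rel (chr11:23736847-23770970, minus strand) there were 481 and 491 CPM at 8 h and 80.5 and 71.8 CPM at 0 h, a log2 fold change of 2.68 ± 0.13 (adjusted p = 2.46e-10). These subunit genes stood far above their 0 h values in both libraries, with no overlap. Relb (chr7:19606217-19629438, minus strand), the subunit that pairs with the product of Nfkb2 in the noncanonical arm, changed by 2.02 ± 0.11, and Rela (chr19:5637483-5648130, plus strand) by 0.996 ± 0.11 (adjusted p = 1.89e-06). Rela, the most abundant subunit transcript per length at 0 h, therefore had the smallest rise of the 5 subunit genes.

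The inhibitors moved apart in the first 8 h. Nfkbib (chr7:28758251-28767512, minus strand), which encodes IkB beta, rose by a log2 fold change of 2.03 ± 0.14 in WT cells, and Nfkbie (chr17:45555703-45563169, plus strand), which encodes IkB epsilon, by 0.70 ± 0.11 (adjusted p = 5.93e-05). Bcl3 (chr7:19808462-19822770, minus strand), a nuclear IkB protein that joins dimers of the Nfkb1 or Nfkb2 products on DNA, had 15.2 and 16.3 CPM at 8 h and 46.3 and 45.2 CPM at 0 h in WT libraries, a log2 fold change of -1.54 ± 0.18 (adjusted p = 7.91e-06). Bcl3 was the only one of the 10 genes that fell between 0 h and 8 h past the threshold, and it did so in both genotypes (-1.77 ± 0.18 in KO cells, adjusted p = 1.83e-06). Nfkbia (chr12:55489410-55492647, minus strand) had 298 and 340 CPM at 8 h and 320 and 187 CPM at 0 h in WT libraries (adjusted p = 0.241). Nfkbiz (chr16:55811375-55838899, minus strand), which encodes a nuclear IkB protein that acts as a coactivator, had 81.3 and 89.7 CPM at 8 h and 189 and 80.0 CPM at 0 h (adjusted p = 0.170). Both sets of libraries overlapped between the times, with the spread at 0 h following that of the immediate early genes. Without WT replicate 1 at 0 h Nfkbia was called higher at 8 h (log2 fold change 0.77), and without replicate 2 Nfkbiz was called lower (-1.14).

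In KO cells the same comparison called 7 genes higher and 1 lower, with 28.6% and 32.9% of all genes. Nfkb1 rose by a log2 fold change of 2.57 ± 0.11, Nfkb2 by 2.703 ± 0.12, Rel by 3.05 ± 0.13, Rela by 1.38 ± 0.11 and Relb by 2.12 ± 0.11. None of the 10 genes passed the test for a difference in this change between the genotypes, in which 0.995% of all genes passed in either direction, and no alternative run called one.

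Between 8 h and 24 h the subunit genes came down in WT cells. In WT cells 6 of 10 genes were lower and 1 was higher at 24 h than at 8 h, while 19.3% of all genes were lower and 24% higher. All 5 subunit genes and Nfkbib fell. Nfkb1 had 934 and 904 CPM at 24 h in WT libraries, against 1794 and 1716 CPM at 8 h, a log2 fold change of -0.93 ± 0.10 (adjusted p = 2.95e-06). Relb changed by -1.04 ± 0.10, Rela by -0.88 ± 0.11, Nfkbib by -0.80 ± 0.13, Rel by -0.57 ± 0.12 and Nfkb2 by -0.47 ± 0.11. All WT values of these genes at 24 h lay below those at 8 h. Bcl3 was called higher at 24 h (0.50 ± 0.19, adjusted p = 0.0477), a call lost in 11 of 21 alternatives, in which the value lay between 0.44 and 0.55 and the adjusted p between 0.00162 and 0.198. Nfkbia, Nfkbie and Nfkbiz were not called.

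In KO cells the genes split between 8 h and 24 h. There 3 genes were lower and 3 higher at 24 h, with 15.6% of all genes lower and 18.9% higher. Nfkb2 had 1187 and 955 CPM at 24 h in KO libraries, against 644 and 575 CPM at 8 h, a log2 fold change of 0.81 ± 0.11 (adjusted p = 7.01e-05). Bcl3 rose by 1.06 ± 0.18 (adjusted p = 0.000611) and Nfkbie by 0.46 ± 0.11 (adjusted p = 0.00422). Both KO libraries at 24 h lay above both at 8 h for each of these genes. Without KO replicate 1 at 24 h the value of Nfkbie was 0.33 and its call was lost. Rela (-0.59 ± 0.11) and Relb (-0.59 ± 0.10) fell. Nfkb1 was called lower (-0.28 ± 0.10, adjusted p = 0.0397), but 10 of 21 alternatives lost that call, with values between -0.37 and -0.20. Rel had a log2 fold change of -0.27 ± 0.12 (adjusted p = 0.106), Nfkbia of 0.48 ± 0.23 (adjusted p = 0.142) and Nfkbib of 0.07 ± 0.13 (adjusted p = 0.714), none past the threshold.

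The largest difference between the genotypes was seen at 24 h, where RNA of the subunits and of the inhibitors was higher in KO cells. Of the 10 genes, 9 were higher in KO than in WT cells and none was lower at an adjusted p under 0.05, while 17.9% of all genes tested were higher and 20.7% lower. Both KO libraries exceeded both WT libraries for all 10 genes, which held for 37.5% of all genes tested. The median log2 fold change was 0.66 for the 10 genes and 0.02 for all genes tested, with 0.55 for the subunits and 0.85 for the IkB family.

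**Figure D2:**
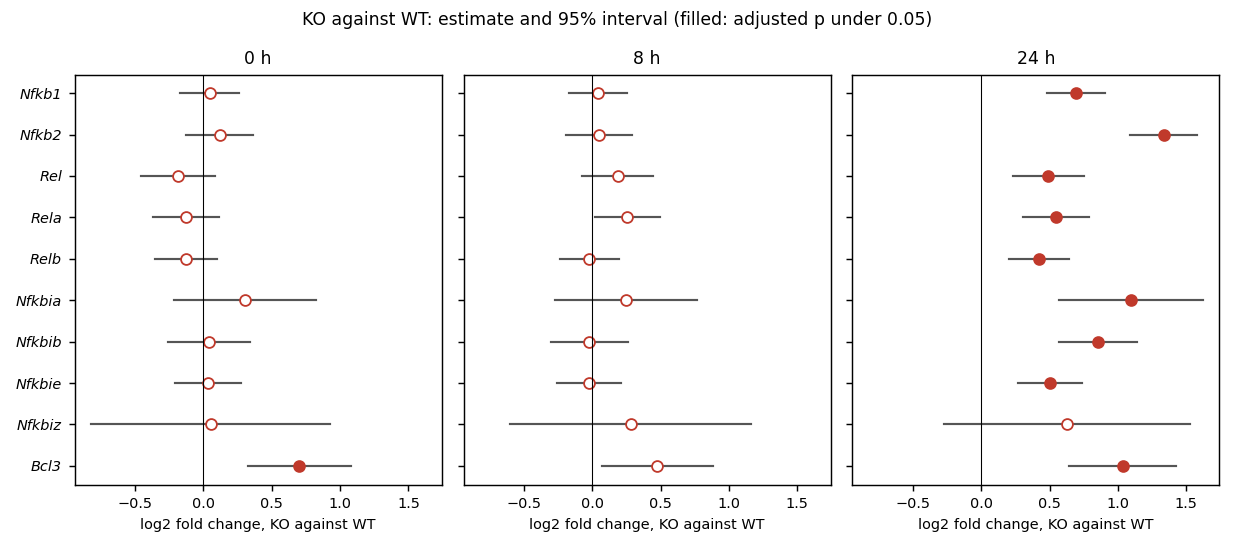
Log2 fold change of KO against WT for each gene at 0 h, 8 h and 24 h, with its 95% interval from the edgeR fit, filled where the adjusted p was under 0.05. At 24 h 9 of 10 estimates are filled and lie to the right of 0, against 1 at 0 h and none at 8 h.

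Nfkb2, the gene of the noncanonical precursor, had the largest difference among the subunits. It had 1187 and 955 CPM in KO and 420 and 429 CPM in WT libraries at 24 h. The KO libraries were thus well above WT with no overlap, and the fold change was 2.52 (log2 1.34 ± 0.11, adjusted p = 4.18e-07). Nfkb2 shares 299 exon bases (6.52% of its exon length) with Psd on the opposite strand, and another 531 with a noncoding RNA on the opposite strand that was not in the table. Psd had 3182 and 2522 counts in KO and 995 and 829 counts in WT libraries at 24 h, so it moved with Nfkb2. No source used here says whether the counting used strand, and reads of the overlap then cannot be told apart.

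Nfkb1, the gene of the canonical precursor, had 1571 and 1404 CPM in KO and 934 and 904 CPM in WT libraries at 24 h. The lower KO library was above the higher WT library by more than the spread within either group, and the fold change was 1.62 (log2 0.70 ± 0.10, adjusted p = 6.51e-05). Rela had 258 and 251 CPM in KO and 163 and 186 CPM in WT libraries, a log2 fold change of 0.55 ± 0.11 (adjusted p = 0.00141). Rel had 503 and 416 CPM in KO and 342 and 312 CPM in WT libraries, a log2 fold change of 0.49 ± 0.12 (adjusted p = 0.00521). Here the KO libraries differed from each other as much as the lower one differed from WT. The Rel call was lost without KO replicate 1 at 24 h (0.36, adjusted p = 0.0834) and without WT replicate 2 (0.43, adjusted p = 0.0597), and over all 23 alternatives the adjusted p lay between 5.52e-05 and 0.0834. Relb had 148 and 146 CPM in KO and 106 and 113 CPM in WT libraries, a log2 fold change of 0.43 ± 0.10 (adjusted p = 0.00443), the smallest of the 5 with groups that did not overlap.

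Among the inhibitors, the cytoplasmic IkB genes and Bcl3 were higher in KO cells. Nfkbia had 577 and 477 CPM in KO and 238 and 255 CPM in WT libraries at 24 h. Both KO values were far above both WT values, and the fold change was 2.14 (log2 1.10 ± 0.23, adjusted p = 0.00484). The SE of Nfkbia was wider than that of the subunits. It takes in the spread of Nfkbia at 0 h (320 and 187 CPM in WT libraries), since all 6 groups share an estimate of the spread. Leaving out the 3 KO libraries numbered 1 (0.96) or the 3 numbered 2 (1.23), which leaves 1 KO library per time, lost the call. Over its 23 alternatives the adjusted p of Nfkbia lay between 1.55e-07 and 0.154. Nfkbib had 194 and 158 CPM in KO and 99.6 and 94.8 CPM in WT libraries, a log2 fold change of 0.85 ± 0.13 (adjusted p = 0.000164). Nfkbie had 89.0 and 75.3 CPM in KO and 55.0 and 61.1 CPM in WT libraries, a log2 fold change of 0.50 ± 0.11 (adjusted p = 0.00212). The groups did not overlap for either gene, and the gap was narrower for Nfkbie. Nfkbib shares 314 exon bases with Ccer2, which had 0 to 5 counts per library, and 42 with Sirt2.

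Of the nuclear IkB genes, Bcl3 had 49.7 and 41.1 CPM in KO and 22.5 and 21.9 CPM in WT libraries at 24 h. The KO libraries stood at about the WT level of 0 h, and the fold change at 24 h was 2.05 (log2 1.03 ± 0.18, adjusted p = 0.000556). Nfkbiz had 76.6 and 78.7 CPM in KO and 48.5 and 51.9 CPM in WT libraries. Its groups did not overlap either, with a log2 fold change of 0.63 and a 95% interval of -0.27 to 1.53 (adjusted p = 0.243), so it was not called. The interval takes in the spread of Nfkbiz at 0 h, since all 6 groups share an estimate of the spread. Fitted with the 24 h libraries alone its adjusted p was 8.18e-05, without either WT library of 0 h it was called as well, and over its 23 alternatives the adjusted p lay between 8.18e-05 and 0.545.

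Summed per exon length, subunits and inhibitors were both higher in KO cells at 24 h. The 5 subunit genes summed to 579 and 499.8 CPM per kb in KO and 295 and 299.7 CPM per kb in WT libraries, and the 5 IkB genes to 512 and 426 CPM per kb in KO and 231 and 241 CPM per kb in WT libraries. At 8 h the subunit sum was 562 and 515 CPM per kb in KO and 504 and 498 CPM per kb in WT libraries, so the KO cells at 24 h were near their 8 h level while the WT cells had come down. The ratio of the IkB sum to the subunit sum moved more with time than with genotype. It was 2.68 and 2.22 in KO and 2.35 and 1.54 in WT libraries at 0 h, 0.659 and 0.683 in KO and 0.610 and 0.666 in WT libraries at 8 h, and 0.885 and 0.853 in KO and 0.781 and 0.806 in WT libraries at 24 h. Within the subunits the makeup differed at 24 h. Nfkb2 made up 44.7% and 41.7% of the subunit sum in KO and 31.0% and 31.2% in WT libraries, and Rela 14.5% and 16.3% in KO and 18.0% and 20.2% in WT libraries. No test was made on these sums and shares.

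**Figure D3:**
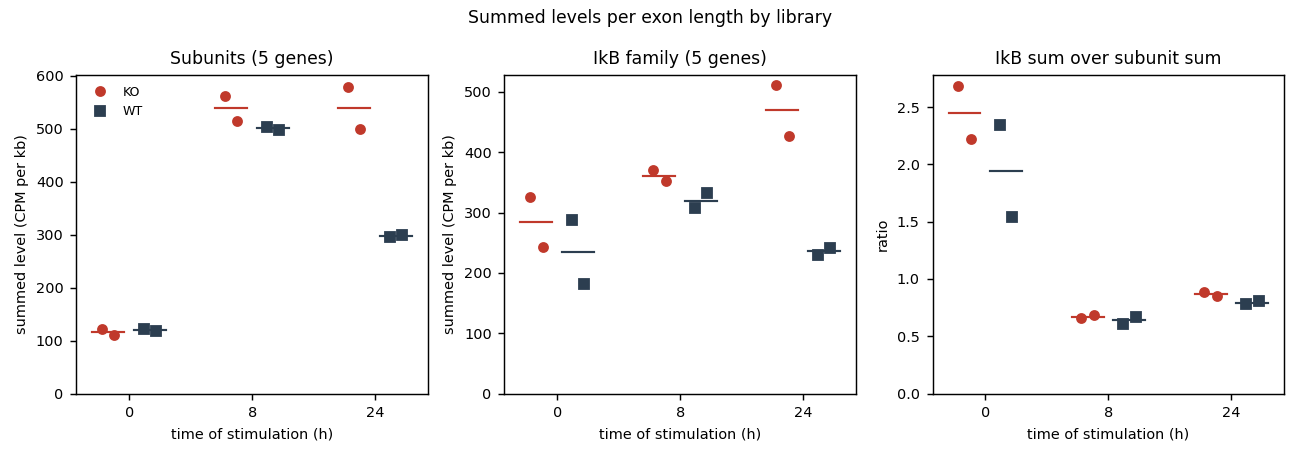
Summed levels of the 5 subunit genes (left) and the 5 IkB genes (middle) in CPM per kb of exon, and the ratio of the sums (right), against hours of stimulation, with a point per library (KO circles, WT squares) and a bar at the mean of 2. At 24 h the KO subunit sums (579 and 499.8) lie above the WT sums (295 and 299.7), while the ratio is lower at 8 h and 24 h than at 0 h in both genotypes.

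Before stimulation and at 8 h the genotypes were much closer. At 0 h 1 of 10 genes was higher in KO cells, with 4.63% of all genes higher and 1.07% lower. This was Bcl3, with 91.5 and 57.2 CPM in KO and 46.3 and 45.2 CPM in WT libraries. The KO libraries did not overlap WT, as for 19.7% of all genes, but stood far apart from each other, with a log2 fold change of 0.70 ± 0.17 (adjusted p = 0.0321). Without KO replicate 1 at 0 h the value was 0.33 (adjusted p = 0.201), and 8 of 23 alternatives lost the call, with 0.33 as the lowest value. The CD8 T and NK cell sum at 0 h was 305 and 177 CPM in KO and 114 and 109 CPM in WT libraries, and the sum of 10 myeloid genes was 108 and 39.7 CPM in KO and 39.0 and 24.4 CPM in WT libraries, so that both, like Bcl3, were highest in KO replicate 1. The basophil sum was 312 and 807 CPM in KO and 44.8 and 23.6 CPM in WT libraries, highest in KO replicate 2, and the neutrophil sum 508 and 507 CPM in KO and 56.0 and 13.1 CPM in WT libraries. Their part in the Bcl3 difference was not tested. Without WT replicate 1 at 0 h, Nfkbia (0.75, adjusted p = 0.0249) and Nfkbiz (0.80, adjusted p = 0.0258) were called higher in KO cells instead, and Bcl3 was not (0.72).

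At 8 h none of the 10 genes passed edgeR's quasi-likelihood test, which called 1.9% of all genes higher and 0.746% lower, and none was called with DESeq2. Of 23 alternatives, 4 called Bcl3 higher in KO cells and 1 called Rela higher. The values of Bcl3 lay between 0.41 and 0.54 over all of them. Both KO libraries exceeded both WT libraries for 5 of 10 genes, which held for 22.1% of all genes. These were Rel, Rela, Nfkbia, Nfkbiz and Bcl3. Rela had 416 and 350.1 CPM in KO and 320.4 and 320.1 CPM in WT libraries (unadjusted p = 0.0369, adjusted p = 0.296), and Bcl3 had 21.0 and 22.7 CPM in KO and 15.2 and 16.3 CPM in WT libraries (unadjusted p = 0.0255, adjusted p = 0.243). No other member had an unadjusted p under 0.05 at 8 h. Nfkb2, the gene with the largest subunit difference at 24 h, had 644 and 575 CPM in KO and 591 and 585 CPM in WT libraries at 8 h, and these overlapped.

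The KO effect at 24 h was larger than that at 8 h for 4 of 10 genes, tested as the difference of the effects, while 5.49% of all genes had a larger and 8.96% a smaller log2 difference at 24 h. The increase was 1.28 ± 0.16 for Nfkb2 (adjusted p = 7.04e-05), 0.88 ± 0.19 for Nfkbib (adjusted p = 0.00558), 0.65 ± 0.14 for Nfkb1 (adjusted p = 0.00544) and 0.53 ± 0.15 for Nfkbie (adjusted p = 0.0340) on the log2 scale. The call for Nfkbie was lost in 5 alternatives, each without 1 library at 8 h or 24 h, with values between 0.41 and 0.60. Nfkbia (0.85 ± 0.32, adjusted p = 0.122), Bcl3 (0.56 ± 0.26, adjusted p = 0.180) and Relb (0.45 ± 0.15, adjusted p = 0.0530) did not pass. In this fit a change of the KO effect between 8 h and 24 h was thus not shown for these genes, nor for Rel, Rela and Nfkbiz. For Relb, Nfkbia and Bcl3 the outcome depended on the setting. Of 21 alternatives, 9 called Relb, 5 called Nfkbia and 3 called Bcl3, and none called Rel, Rela or Nfkbiz. With DESeq2 the adjusted p was 0.0340 for Relb and 0.0114 for Nfkbia.

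The marker sums of several other cell types were also higher in KO libraries at 24 h, and the B cell sum was not. The basophil and mast cell sum was 175 and 619 CPM in KO and 10.3 and 9.47 CPM in WT libraries, and 8 of its 9 genes were called higher. The neutrophil and progenitor sum was 22.2 and 87.3 CPM in KO and 0.593 and 0.433 CPM in WT libraries. Of its 10 genes, 5 were called higher. The CD8 T and NK cell sum was 172 and 109.7 CPM in KO and 33.7 and 30.7 CPM in WT libraries. Of its 10 genes, 5 were called higher. Its highest genes in KO libraries were Eomes (95.71 and 45.61 CPM, WT 18.8 and 12.67) and Nkg7 (52.57 and 45.72 CPM, WT 5.549 and 8.281). Prf1, Klrk1, Gzma, Klrd1 and Ncr1 were also higher without overlap, at lower levels. Cd8a (1.198 and 0.7009 CPM in KO, 1.67 and 1.191 in WT), Cd8b1 and Klrb1c overlapped between the genotypes. The T cell markers summed to 5454 and 4665 CPM in KO and 3312 and 3750 CPM in WT libraries, with 4 of 12 called higher and none lower. The highest of them in KO libraries was Ccr7, with 2217 and 1570 CPM in KO and 536 and 592 CPM in WT libraries. The myeloid sum was 38.5 and 33.5 CPM in KO and 16.97 and 13.2 CPM in WT libraries (3 of 9 genes called higher). That of 5 regulatory T cell genes was 134 and 131 CPM in KO and 73.8 and 69.3 CPM in WT libraries (2 of 5). Its highest gene was Ikzf4, with 74.08 and 71.71 CPM in KO and 29.04 and 28.15 CPM in WT libraries. Ikzf2 and Lrrc32 were also higher in KO libraries without overlap. Foxp3 (10.89 and 13.96 CPM in KO, 12.88 and 13.42 CPM in WT) and Nrp1 overlapped between the genotypes. The B cell sum was 90.0 and 83.2 CPM in KO and 230.0 and 246 CPM in WT libraries, with 1 of 4 tested genes lower and none higher. The immediate early genes summed to 2352 and 2175 CPM in KO and 1293 and 1457 CPM in WT libraries at 24 h. Between the KO libraries the basophil and neutrophil sums were higher in replicate 2, and the CD8 T and NK cell and myeloid sums in replicate 1. Without the KO libraries numbered 2, the difference at 24 h was 1.48 for Nfkb2, 0.77 for Nfkb1 and 0.99 for Nfkbib on the log2 scale, and without those numbered 1 it was 1.18, 0.62 and 0.71, all past the threshold. Whether CD4 T cells or other cells expressed these marker genes was not tested. The part of the RNA of other cells in these differences was not tested either.

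A second readout came from reads at transposon-derived repeats (LINE, SINE, LTR and DNA classes) that lie inside an intron of 1 gene alone. Such reads can come from unspliced RNA of that gene, but their origin was not tested, and loci were assigned to genes regardless of strand. Of the 10 genes, 8 had any, between 3 loci in Nfkbie and 73 in Nfkb1. At 24 h these intronic counts were higher in KO cells for 2 of 8 genes, while 6.03% of 9284 genes were higher and 2.32% lower. Nfkb1 had 27.9 and 24.6 intronic CPM in KO and 10.8 and 10.9 in WT libraries, a log2 fold change of 1.27 ± 0.25 (edgeR adjusted p = 0.00152). Nfkbib had 9.53 and 5.82 intronic CPM in KO and 3.93 and 2.71 in WT libraries, a log2 fold change of 1.21 ± 0.35 (adjusted p = 0.0286). The KO libraries lay above WT for both genes without overlap. The estimates of the other 6 genes ran from 0.33 for Rela to 1.18 for Bcl3 and did not pass, with adjusted p from 0.0780 for Relb to 0.464 for Rela at between 0.593 and 13.5 intronic CPM per library. The difference between the readouts of a gene was not tested, and in this comparison at 24 h the intervals overlap for all 8 genes.

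Over the first 8 h in WT cells the intronic counts rose for 4 of 8 genes and fell for 1, while 11.4% of all genes in this readout were higher and 28.7% lower. Nfkb1 changed by 2.10 ± 0.26, Relb by 1.75 ± 0.26, Rel by 1.68 ± 0.44 and Rela by 0.77 ± 0.27, and Bcl3 by -1.87 ± 0.42. These are the directions that the gene counts of the same genes took. Nfkbib, with a rise of 2.03 in the gene counts, had an intronic change of 0.65 ± 0.33 that did not pass (adjusted p = 0.122). Its 95% intervals did not overlap, with 1.73 to 2.33 in the gene counts and -0.04 to 1.34 in the intronic counts. The difference between these readouts was not tested.

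**Figure D4:**
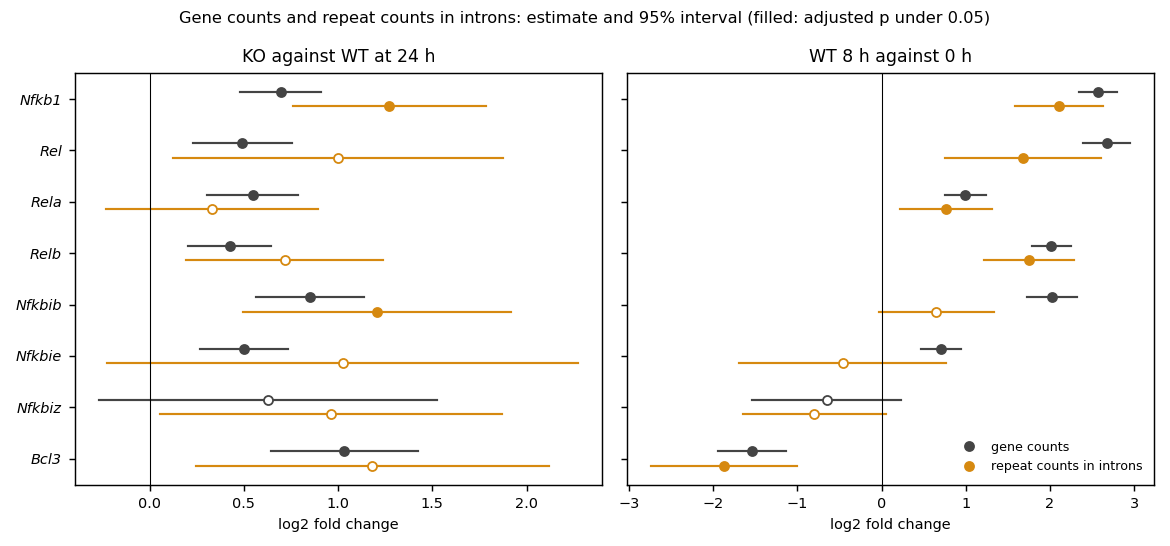
Log2 fold change and 95% interval of the gene counts (grey) and of the repeat counts in introns (orange) for the 8 genes that had both, for KO against WT at 24 h (left) and for 8 h against 0 h in WT cells (right), filled where the adjusted p was under 0.05. On the left the intronic estimates lie to the right of 0 for all 8 genes with wider intervals, and are filled for Nfkb1 and Nfkbib.

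The upstream and downstream genes of the pathway were followed in 6 lists, some of which share genes such as Traf1, Tnf and Tnfaip3. Their counts stand beside 17.9% of all genes higher and 20.7% lower at 24 h, 1.9% higher and 0.746% lower at 8 h, and 4.63% higher and 1.07% lower at 0 h. Among 15 TNF family ligands and receptors, 11 were higher and 1 lower in KO cells at 24 h, with a median log2 fold change of 0.65. Tnfsf4, which encodes the OX40 ligand, had 139.7 ± 9.26 CPM in KO cells and 10.4 ± 4.01 CPM in WT cells (SD, n = 2), a log2 fold change of 3.75 ± 0.24 (edgeR adjusted p = 4.23e-07), and was called at 0 h (4.07) and 8 h (2.72) as well. The receptor genes Tnfrsf18, for GITR, Tnfrsf9 and Tnfrsf1b changed by 1.26, 1.19 and 1.05. Cd40lg, the ligand of activated helper T cells, was the exception, with 30.9 ± 0.273 CPM in KO cells and 109 ± 18.6 CPM in WT cells at 24 h (log2 -1.83 ± 0.21), and is named after its values were seen. At 0 h 4 of these 15 genes were higher, namely Tnfsf4, Ltbr, Tnfsf14 and Tnfrsf18, with 4.63% of all genes higher. Mean levels in KO and WT cells were low for Tnfsf4 (6.58 and 0.388 CPM), Ltbr (3.94 and 0.683 CPM) and Tnfsf14 (3.04 and 0.806 CPM). Tnfrsf18 had 26.3 and 16.8 CPM. The part of the RNA of other cells in these calls at 0 h was not tested.

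Of 17 genes from the T cell receptor to IKK, 8 were higher and 2 lower at 24 h (17.9% and 20.7% of all genes), with a median of 0.31. Traf6, a ubiquitin ligase, had 228.8 ± 0.556 CPM in KO cells and 127 ± 10.6 CPM in WT cells (log2 0.85 ± 0.10). Map3k7, the kinase upstream of IKK, changed by 0.68 and its partner Tab2 by 0.50. Casp8, which encodes a protease, was lower (-0.62), as was Ube2n (-0.58), a ubiquitin-conjugating enzyme named after its values were seen. At 8 h Map3k7 alone was called (0.39), and at 0 h Tab1 alone (-0.56). Of 12 genes of the IKK complex and the noncanonical arm, 6 were higher and none lower at 24 h, with a median of 0.32. Ikbke, an IKK-related kinase, had 339 ± 2.47 CPM in KO cells and 126 ± 1.17 CPM in WT cells (log2 1.43 ± 0.11). Traf1, an adaptor, changed by 1.06, Birc2, a ubiquitin ligase, by 0.91, and Map3k14, the kinase that starts the processing of the Nfkb2 product, by 0.56. Chuk and Ikbkb, which encode the catalytic IKK subunits, had values of 0.12 ± 0.10 and -0.13 ± 0.08 and did not pass, and are named after their values were seen.

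Among 13 deubiquitinases and other feedback inhibitors, 9 were higher and none lower at 24 h, with a median of 0.68. N4bp1 had 131 ± 9.63 CPM in KO cells and 49.0 ± 0.808 CPM in WT cells (log2 1.42 ± 0.10), and was called at 8 h as well (0.46). Tax1bp1, an adaptor of the deubiquitinase A20, changed by 0.91, Otud7b, a deubiquitinase, by 0.81 and Tnip1, an A20-binding inhibitor, by 0.68. Tnfaip3, the gene of A20, had 224.5 ± 32.3 CPM in KO cells and 133 ± 3.08 CPM in WT cells (log2 0.75 ± 0.90, adjusted p = 0.564), was not called, and is named after its values were seen. Of the 9 tested genes related to the IkB family outside the 10, 1 was higher at 24 h, Nkiras1 (0.52 ± 0.14), which is no more than the 17.9% among all genes, and the list median was -0.03.

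Of 30 reported NF-kB targets in lymphocytes, 18 were higher and 3 lower in KO cells at 24 h, with a median of 0.61, and all genes tested had a median of 0.02. Stat5a, a transcription factor of cytokine receptors, had 747 ± 40.2 CPM in KO cells and 247 ± 7.22 CPM in WT cells (log2 1.60 ± 0.09, edgeR adjusted p = 3.84e-09). Icam1, an adhesion molecule, changed by 1.74 and Cd44, an adhesion receptor of activated T cells, by 1.37. The 3 lower genes were Sod2 (-0.43), Bcl2a1b (-0.75) and Bcl2a1d (-0.77), named after their values were seen, and the Bcl2a1 copies are near-identical so that their reads may be split. At 8 h Icam1 (0.82), Ccl3 (1.62) and Ccl4 (1.03) were called, and at 0 h Ccl3, Ccl4, Ier3, Icam1 and Cd44. Mean levels in KO and WT cells at 0 h were low for Ccl3 (7.87 and 1.10 CPM), Ccl4 (3.75 and 0.417 CPM) and Ier3 (6.26 and 0.804 CPM). Icam1 had 47.4 and 30.6 CPM and Cd44 27.9 and 20.7 CPM. The part of the RNA of other cells in these values was not tested. Il2, the T cell growth factor, had 166 ± 48.7 CPM in KO cells and 177 ± 10.3 CPM in WT cells at 24 h (adjusted p = 0.702) and is also named after its values were seen.

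**Figure D5:**
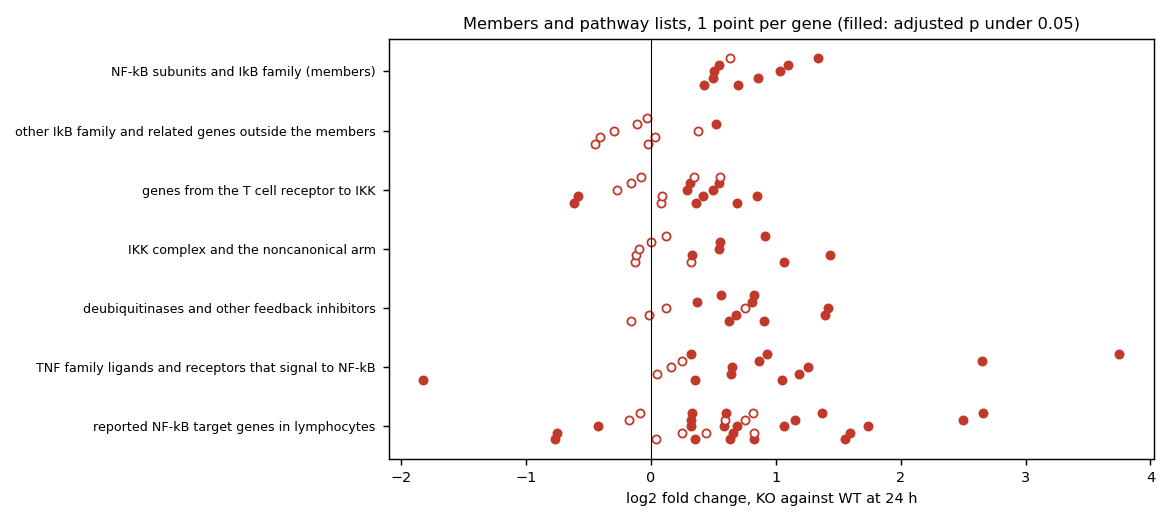
Log2 fold change of KO against WT at 24 h, with a point per gene tested, for the 10 subunit and IkB genes and the 6 pathway lists, filled where the adjusted p was under 0.05. Filled points lie mostly to the right of 0, and in the list of genes related to the IkB family outside the 10 only 1 of 9 points is filled.

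Across the 12 libraries the subunit genes and Nfkbib ran close together, as a description of libraries that share their times and genotypes. Pearson's r of log2 CPM was 0.99 between Nfkb1 and Rel, 0.99 between Nfkb1 and Nfkbib, and 0.76 between Nfkb2 and Rela, the lowest among the 5 subunits. Bcl3 ran the other way, with r from -0.78 with Relb to -0.58 with Nfkb2. Among 9317 other genes, those most like Nfkb1 were Tma16, Krr1 and Noc3l (r of at least 0.99), and those most like Nfkb2 were Tm9sf4, Lzic and Fzr1. Rel ran closest to Utp20, Ptger2 and Kdm2b, Rela to Selenos, Arf6 and Stk40, and Relb to Srfbp1, Rufy3 and Ipo4. For the inhibitors these were Dda1, Rab18 and H2-Eb1 for Nfkbia (r of 0.93 for Dda1), Ufm1, Nek8 and Cd82 for Nfkbib, and Aebp2, Crnkl1 and Tm9sf4 for Nfkbie. Vamp2, Pnrc1 and Mir5125 were most like Nfkbiz, and Stx2, Crybg1 and Ndufa6 most like Bcl3.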

How the data were processed

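The authors deposited raw counts, whole numbers without normalization, per gene and per repeat locus for 12 libraries. Per the labels, stranded libraries were made from total RNA after removal of ribosomal RNA. The submitters' processing notes name fastp 0.12.4, STAR 2.7.1a and mm10. No source used here gives the counter, its annotation or its use of strand. Genes were filtered with filterByExpr by group (minimum count 10, total 15), which kept 15679. A single quasi-likelihood fit (edgeR 4.0.16, R 4.3.3, TMM factors, robust) held 1 mean per group with 6 residual degrees of freedom and 9 two-sided contrasts, each Benjamini-Hochberg adjusted, with 0.05 as the threshold. CPM were scaled with TMM factors, and CPM per kb used the union of annotated exons (GENCODE, GRCm38). Of the 4 repeat classes, 622209 loci had a count. Those that touched no annotated exon and lay inside 1 gene alone were summed per gene as intronic repeat counts. These were fitted for 9284 genes with the gene table's library sizes. Alternatives were other scalings, DESeq2 1.42.0, other filters, a replicate block, the groups compared alone and libraries left out. The fit was tested on simulated data, but the outcome is not reported here and no result rests on it. The rule for names took from each pathway list up to 4 genes per KO against WT comparison with the smallest p among those called, and 3 genes most like each member with a mean of at least 5 CPM. The members and lists were chosen with earlier results of these data known.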

Additional observations from a re-analysis of the deposited data

Results flagged for a closer look

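For 4 of the 10 genes the KO effect differed between 8 h and 24 h by a test of the difference itself (edgeR's quasi-likelihood test, adjusted p under 0.05). The log2 difference was larger at 24 h by 1.28 for Nfkb2, by 0.88 for Nfkbib, by 0.65 for Nfkb1 and by 0.53 for Nfkbie. In the underlying values, KO and WT libraries of Nfkb1, Nfkb2, Nfkbib and Nfkbie overlapped at 8 h and did not overlap at 24 h.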

How the results depend on the processing

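With 2 libraries per group, the number of members called for KO against WT at 24 h was 9 and lay between 8 and 10 over 23 alternatives. For KO against WT at 0 h it was 1, and 0 with the groups compared alone, 0 without the KO libraries numbered 1, 2 without those numbered 2, and 0 to 2 with single libraries left out. For KO against WT at 8 h it was 0, and 1 without the filter, 1 without the KO libraries numbered 1, 1 without those numbered 2, and 0 to 1 with single libraries left out. For the difference of the KO effects at 24 h and 8 h it was 4, and 7 with the groups compared alone. Of 2022 member values, 54 lost and 47 gained a call. Another 61 changed sign without a call in either setting, 50 of them outside the intronic readout, of size 0.52 or less. Only in the intronic readout did a called value reverse, namely Nfkbie at 8 h against 0 h in WT cells (-0.46) and Bcl3 at 24 h against 8 h in WT cells (-0.31), neither called there. The cause was not tested. Counts of called genes in the pathway lists lay within 1.5 times the count given at 24 h, except for the genes related to the IkB family (1, with 0 to 3). At 8 h the TNF family list had 1 (1 to 6), the target list 3 (1 to 10), and the T cell receptor list, the feedback inhibitors and the IKK list 1, 1 and 0 (0 to 2, 0 to 2 and 0 to 1). At 0 h they had 4 (2 to 6), 5 (4 to 8), 1 (0 to 2), 0 (0 to 3) and 0 (0 to 0). The labels do not say what a replicate number marks. Same-numbered libraries deviated together by r of 0.11 to 0.29 between times within KO and 0.09 to 0.22 within WT, and of -0.10 to 0.24 between genotypes. The value of 0.24 was that of KO and WT at 0 h. The numbers may tie libraries, but these ranges overlap, so a tie within a genotype alone was not shown. The replicate block left 9 members called at 24 h and moved 1 member call, that of Relb for the difference of the KO effects at 24 h and 8 h (0.45, adjusted p = 0.0383). A replicate block within each genotype moved the same call (0.45, adjusted p = 0.0235) and no other member call, time comparisons included. The block within genotype, the alternatives that leave out the KO libraries of 1 number and the intronic readout were chosen after the data were seen. Counts at low genes such as the intronic ones limit their precision.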
